A study of Mus musculus with 4 samples.

Results

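Pmel, Mlana, Dct, Tyrp1 and Tyr encode proteins of the melanosome, the organelle in which pigment cells make melanin. The 5 genes were taken by their symbols from the 27998 gene rows of the count matrices. Their transcripts were followed in immune cells sorted from melanomas, by cell type and by library, with mononuclear phagocytes (monocytes and macrophages) set against lymphocytes (T and NK cells). The tumours were B16F10-OVA melanomas, a mouse melanoma line that carries the model antigen ovalbumin, grown under the skin from 1000000 injected cells in mice of the C57BL/6 background. The hosts were miR-155 TCKO mice (a T cell conditional knockout of miR-155, called knockout here) and wild-type C57BL/6 mice, taken 9 or 12 days after injection. Both genotypes received the same tumour cells and no other treatment is given. The Cre driver of the knockout and the ages of the mice are not given in the sources used here. Tumours of more than 4 mice per group were pooled, live CD45+ cells were sorted, and each group gave 1 droplet library of 3′ RNA-seq in which each captured transcript is counted once by a molecular identifier (UMI). With 1 library per genotype and day, genotype and library cannot be told apart at a single day. The sample labels name no run of library preparation, so the day of harvest and such a run cannot be told apart.

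PMEL forms the fibrils on which melanin is laid down, and MLANA (MART-1) takes part in the maturation of melanosomes. TYR, the tyrosinase, catalyses the first and limiting step of melanin synthesis, and DCT and TYRP1 act on later intermediates of the same pathway. In mice these genes are expressed in cells of the melanocyte lineage and in the pigmented epithelium of the eye, and they are used as markers of that lineage. Macrophages and dendritic cells take up dead cells and debris and degrade them in lysosomes, whereas T and NK cells are poorly phagocytic.

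On GRCm38 Pmel lies at chr10:128704195-128720238 on the plus strand, Mlana at chr19:29697824-29708634 (plus), Dct at chr14:118012790-118052244 (minus), Tyrp1 at chr4:80834123-80851719 (plus) and Tyr at chr7:87424771-87493512 (minus). MITF, the lineage factor of melanocytes, is known to act through an element called the M-box in the promoters of the tyrosinase family. The promoter windows of the 3 enzymes are shown for the letters of this element. RefSeq promoter entries (GRCm38.p6) were matched for 3 of the 5 genes. Each window is 120 bases, written 5′ to 3′ on the gene's strand, and capitals mark TCATGTGCT, the last 9 letters of the M-box.
Dct, chr14:118052333-118052452, minus strand: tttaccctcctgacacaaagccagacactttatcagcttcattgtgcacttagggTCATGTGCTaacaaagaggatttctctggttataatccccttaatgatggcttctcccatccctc
Tyrp1, chr4:80834111-80834230, plus strand: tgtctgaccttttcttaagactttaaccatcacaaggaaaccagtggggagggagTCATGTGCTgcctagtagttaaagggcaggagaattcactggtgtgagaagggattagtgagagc
Tyr, chr7:87493470-87493589, minus strand: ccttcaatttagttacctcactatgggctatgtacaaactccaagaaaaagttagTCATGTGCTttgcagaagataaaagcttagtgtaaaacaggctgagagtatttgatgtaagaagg
The capitals began 151 bases before the start of the RefSeq entry in Dct, 47 in Tyrp1 and 22 in Tyr. The RefSeq start of Tyrp1 lies downstream of the gene start given above, which is that of GENCODE, so the capitals fall within the longer gene model. The full M-box of 11 letters was matched in Tyr and Tyrp1 and not in Dct. On either strand TCATGTGCT occurred in 134 of 32851 mouse promoters, taken from 250 bases before to 50 after each start (0.408%). Its inner letters CATGTG, which it contains, occurred in 4650 (14.2%). A match describes letters in a window and was not linked here to the counts.

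The libraries held 3749 barcodes in the knockout at day 9, 1778 in the wild type at day 9, 2059 in the knockout at day 12 and 3684 in the wild type at day 12, with 18783490 to 33902064 UMIs each. The transcript of the deleted locus, Mir155hg, had 0 UMIs in T cells of both knockout libraries, against 93 and 18 UMIs in T cells of the wild-type libraries at days 9 and 12. Cell types were set by marker genes other than the 5 pigment genes. Phagocyte gates rested on 14 markers such as Lyz2, Csf1r and C1qa, and T cell gates on the 6 of 8 markers with a row. Between 9.01% and 11.4% of cells scored for more than 1 type and were left out of the types. Ptprc, which encodes CD45, was detected in 84.8% to 95.3% of cells, and any pair of libraries shared 4 to 16 cell barcodes. Fibroblast genes (Col1a1, Col1a2, Col3a1 and Dcn) summed to at most 2.08 UMIs per 1000000 UMIs in phagocytes and at most 0.412 in lymphocytes, and the keratinocyte keratins Krt5, Krt14 and Krt15 were at 0 in both.

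One library stood apart in its pigment UMIs. The knockout library at day 9 held 4463 of the 5131 pigment UMIs of the series, against 36 in the wild type at day 9, 314 in the knockout at day 12 and 318 in the wild type at day 12. In that library 6 barcodes passed a melanoma gate built on Sox10, Mitf, Slc45a2 and other melanocyte genes outside the 5, and none did in the other libraries. Of these 6, 5 carried 251 to 1829 pigment UMIs each and together 4248, which is 95.2% of the library's pigment UMIs. They had 0 or 1 UMI of Ptprc and 0 to 2 of C1qa. The sixth passed on 9 UMIs of 3 markers, with 0 pigment UMIs. Had these barcodes been counted as phagocytes, the phagocyte level of that library would have been 243 UMIs per 1000000 UMIs (CPM) in place of 6.12 CPM. All results below leave them out.

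**Figure D1:**
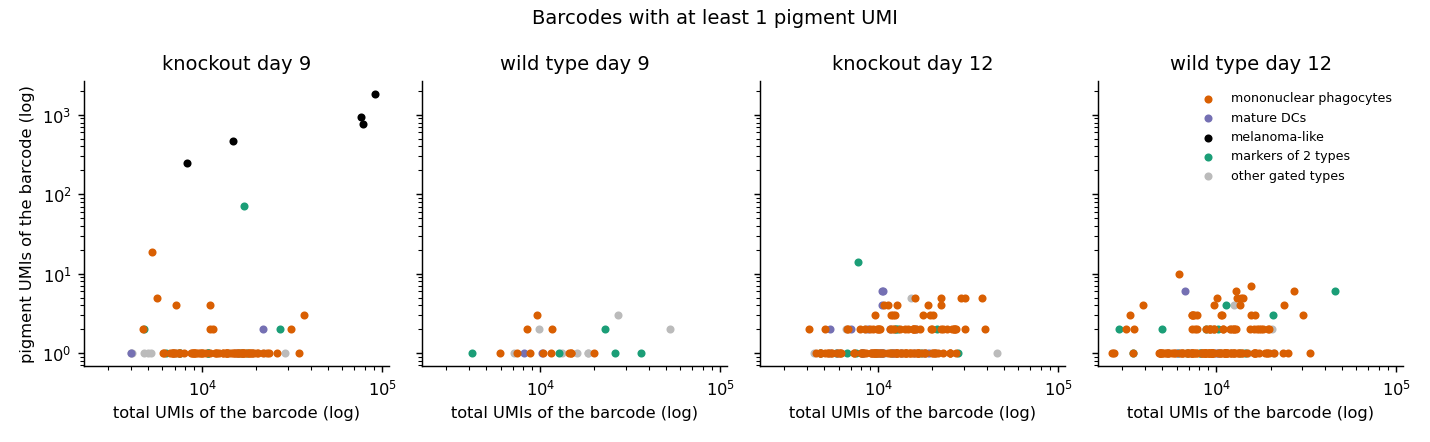
Each point is a barcode with at least 1 pigment UMI, by its total UMIs (horizontal, log scale) and its summed UMIs of the 5 pigment genes (vertical, log scale), in each of the 4 libraries and coloured by gate. The 5 melanoma-like barcodes of the knockout at day 9 lie at 251 to 1829 pigment UMIs, while phagocytes reach 19 at most.

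A separate barcode of the knockout at day 9 carried 71 pigment UMIs together with 46 of C1qa, 136 of Apoe and 35 of Lyz2, and was gated to more than 1 type. A barcode of the knockout at day 12 with 14 pigment UMIs and 8 of Lyz2 was likewise gated to more than 1 type. The highest single phagocyte, in the knockout at day 9, had 19 pigment UMIs among 5222, or 17.6% of all pigment UMIs of that library's phagocytes. Without it the phagocyte level was 5.05 CPM. Whether such barcodes are single cells or droplets with more than 1 cell was not tested.

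In mononuclear phagocytes the 5 genes summed to 6.12 CPM in the knockout at day 9 (95% Poisson interval 5.02 to 7.39, 108 UMIs in 1752 cells). They summed to 6.69 in the wild type at day 9 (3.82 to 10.9, 16 UMIs in 250 cells), 23 in the knockout at day 12 (20 to 26.3, 210 UMIs in 895 cells) and 16.3 in the wild type at day 12 (14.4 to 18.5, 245 UMIs in 1726 cells). In lymphocytes of the same libraries the sums were 2.07 (0.994 to 3.81, 10 UMIs), 0.548 (0.220 to 1.13, 7 UMIs), 1.48 (0.404 to 3.79, 4 UMIs) and 0.412 (0.0499 to 1.49, 2 UMIs). Phagocytes stood above lymphocytes in all 4 libraries, and the lowest phagocyte value, 6.12, was above the highest lymphocyte value, 2.07. These intervals, and those of the ratios of levels below, take UMIs as independent and cover counting error only. Pigment UMIs clustered within phagocytes, where the variance of the count per cell was 4.64, 1.57, 2.07 and 2.65 times its mean. The intervals are therefore too narrow for the spread between cells.

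The ratio of phagocytes to lymphocytes differed between libraries. It was 2.95 in the knockout at day 9 (95% interval 1.55 to 6.33), 12.2 in the wild type at day 9 (4.75 to 35.1), 15.5 in the knockout at day 12 (5.97 to 57.5) and 39.6 in the wild type at day 12 (10.9 to 329). Within lymphocytes, T cells had 1.94, 0.616, 2.42 and 0.436 CPM and NK cells 2.46, 0, 1.07 and 0.391 in the same order of libraries, and their intervals overlapped in each library. B cells and neutrophils had 0 pigment UMIs, but with at most 14 B cells and 8 neutrophils per library the limit that 0 allows was 33.4 CPM or more.

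**Figure D2:**
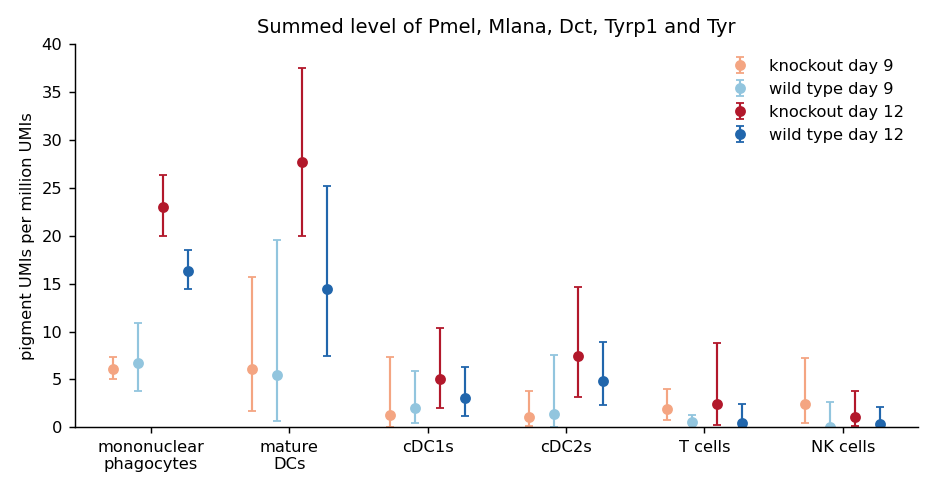
Summed UMIs of the 5 pigment genes per 1000000 UMIs (vertical) by cell type, with 1 point per library and bars for the exact 95% Poisson interval. Phagocytes and mature dendritic cells (DCs) of day 12 lie at 14.4 to 27.7, and T and NK cells of all libraries at 2.46 or below.

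Pigment RNA came as single UMIs in most phagocytes that had any. The share of phagocytes with at least 1 pigment UMI was 4.22% in the knockout at day 9, 4.80% in the wild type at day 9, 14.0% in the knockout at day 12 and 8.34% in the wild type at day 12. The share of lymphocytes was 1.12%, 0.385%, 0.901% and 0.220%. Median depth was 8791, 9086, 9256 and 8368 UMIs in phagocytes and 4319, 9130, 4273 and 3819 in lymphocytes. After thinning each cell to 2000 UMIs the shares were 0.915%, 1.18%, 3.50% and 2.61% of phagocytes and 0.356%, 0.0520%, 0.280% and 0.0288% of lymphocytes, so the order of the 2 cell classes was the same in each library. Of the phagocytes with a pigment UMI, 74, 12, 125 and 144 cells, those with exactly 1 made up 87.8%, 75.0%, 57.6% and 66.0%. UMIs of 2 or more of the 5 genes were found in 9, 2, 37 and 36 phagocytes, and 3 or more pigment UMIs in 5, 1, 17 and 23.

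As a gauge of free RNA, the genes Lyz2 and C1qa to C1qc, which lymphocytes should lack, were read in the same lymphocytes. These genes are markers of the phagocyte gate, so cells that carry much of them were kept out of the lymphocytes. Lyz2 in lymphocytes stood at 1.72%, 0.340%, 2.04% and 1.75% of its phagocyte level, and the C1q genes at 0.801%, 0.193%, 1.12% and 1.43%. The pigment level in lymphocytes was 33.9%, 8.20%, 6.45% and 2.52% of that in phagocytes. No gate used the pigment genes, so their percentages are not on the same footing as those of Lyz2 and C1q. The pigment share was largest in the knockout at day 9, which also held the melanoma-like barcodes. The part of those cells in the lymphocyte level was not tested. In the other direction, Cd3 genes in phagocytes were at 22.3, 45.5, 10.1 and 14.6 CPM, against 2705, 3580, 2927 and 2996 in T cells. Cd3 genes are markers of the T cell gate, so the gates set this gap in part as well.

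Pmel, the fibril protein, had 1.53 and 0.836 CPM in phagocytes at day 9 (knockout, wild type) and 3.50 and 3.87 at day 12. In lymphocytes it had 0.622 and 0.157 at day 9 and 0.370 and 0 at day 12. The 2 classes did not overlap, and the share of all genes for which this holds was not counted. The 3′ end of Pmel overlaps the 3′ end of Dgka on the opposite strand by 105 bases, and whether the counting used strand is not given in the sources used here. Dgka, a diacylglycerol kinase gene, was higher in lymphocytes (84.2, 47.0, 39.3 and 30.3 CPM) than in phagocytes (8.33, 8.78, 5.47 and 4.80), the opposite of the order of Pmel. Cdk2 overlaps the other end of Pmel, and the antisense gene 4930435M08Rik inside Dct had 0 UMIs in both classes.

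Mlana had 0.964 and 1.67 CPM in phagocytes at day 9 (knockout, wild type) and 4.16 and 2.80 at day 12. Its lymphocyte values were 0.207, 0.157, 0.370 and 0, each below the phagocyte value of the same library. Dct was the most counted of the enzymes. Phagocytes had 1.87 and 2.09 CPM of Dct at day 9 and 12.1 and 7.40 at day 12, against 1.04, 0.157, 0.741 and 0 in lymphocytes. Tyrp1 had 1.70, 2.09, 2.95 and 2.00 CPM in phagocytes, against 0.207, 0.0783, 0 and 0.412 in lymphocytes. Both enzymes were higher in phagocytes than in lymphocytes of the same library each time. In wild-type phagocytes of day 9 the values rest on 4 UMIs of Mlana, 5 of Dct and 5 of Tyrp1. For these genes too, the share of all genes with this order was not counted. In the test of these classes, 33.2% of 9844 genes were called higher in phagocytes. Tyr was close to the limit of detection, with 1, 0, 2 and 4 UMIs in phagocytes and 0 in the lymphocytes of every library, where 0 allows up to 0.622, 0.235, 1.11 and 0.618 CPM, and no fold is given for it.

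**Figure D3:**
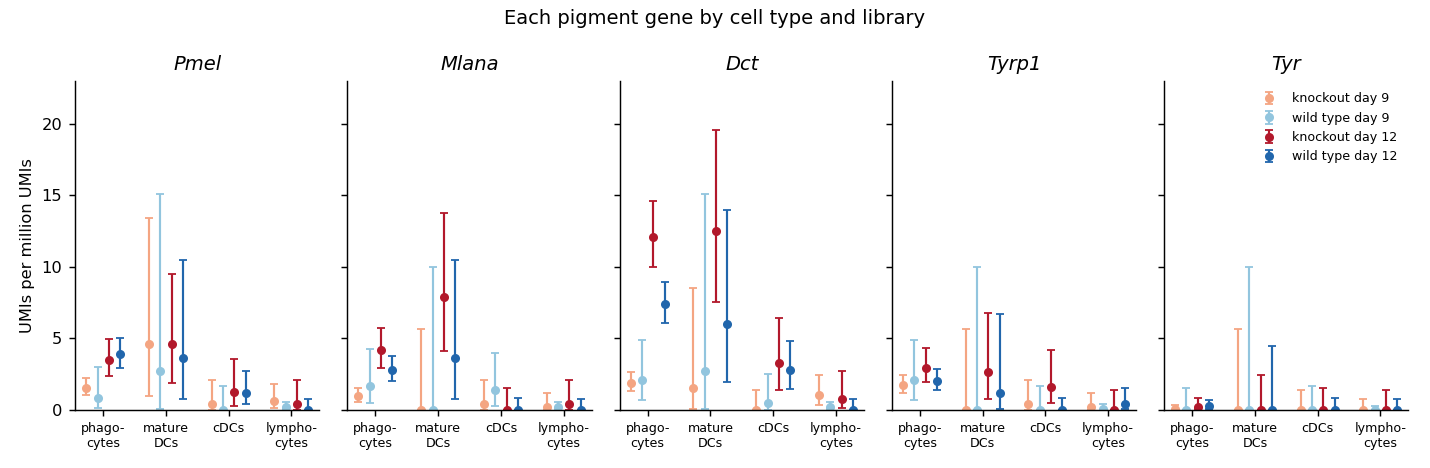
UMIs per 1000000 UMIs (vertical) of each of the 5 genes in phagocytes, mature DCs, conventional DCs (cDCs) and lymphocytes, with 1 point per library and bars for the exact 95% Poisson interval. Dct reaches 12.1 in phagocytes and 12.5 in mature DCs of the knockout at day 12, and Tyr stays at or below 0.267 in every sum.

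Dct was higher in phagocytes than in lymphocytes by 3.44 ± 0.55 on the log2 scale (SE, 4 libraries; edgeR quasi-likelihood test with Benjamini-Hochberg adjusted p = 1.58e-05), and in 4 of 4 libraries. The test was fitted on 20 sums of UMIs per cell type and library with library as a block, and Dct was the only one of the 5 genes to pass the filter on low counts. That filter keeps a gene that reaches a set level in only a part of the sums. Dct was highest in the day 12 sums (knockout, wild type) of phagocytes, 12.1 and 7.40 CPM, and of mature dendritic cells, 12.5 and 6.01. In lymphocytes it was at 1.04 or below, so it entered this test through groups where it was high. In that fit 33.2% of the 9844 genes tested were called higher in phagocytes and 33.1% lower. In the same fit without the filter 4 of the 5 genes were called higher, and so were 21.2% of the 16995 genes tested. There edgeR gave log2 differences of 2.86 ± 0.58 for Pmel (adjusted p = 2.72e-05), 3.65 ± 0.69 for Mlana (7.76e-06), 3.42 ± 0.48 for Dct (1.37e-08) and 3.34 ± 0.66 for Tyrp1 (2.08e-05). Tyr was not called (adjusted p = 0.24). Without either day 12 library Dct fell below the filter and could not be tested in the filtered fit, whereas the unfiltered fit called 4 genes in each of the 4 fits that left out 1 library.

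Mature dendritic cells, which express Ccr7, Fscn1 and Ccl22, carried pigment RNA as well. The 5 genes summed to 6.12 and 5.43 CPM in mature dendritic cells at day 9 (knockout, wild type; 4 and 2 UMIs in 65 and 39 cells) and to 27.7 and 14.4 at day 12 (42 and 12 UMIs in 171 and 109 cells). At day 12 they stood 18.7 times (6.79 to 71.9) above lymphocytes in the knockout and 35.0 times (7.79 to 322) in the wild type. At day 9 the ratios were 2.95 (0.676 to 10.2) and 9.91 (1.00 to 52.0), and the first of these intervals includes 1. Phagocyte markers in these cells summed to 789.6, 242, 481 and 600.0 CPM in the order of the libraries above, against 35295, 37861, 31646 and 32195 in phagocytes. These markers entered the gating of both cell types, so the gates set this gap in part.

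In mature dendritic cells Dct was higher than in lymphocytes by 3.78 ± 0.71 on the log2 scale (edgeR adjusted p = 0.000135; 28.5% of genes called higher). Here too Dct had passed the filter through the day 12 sums of phagocytes and of these cells. The unfiltered fit called Pmel, Mlana, Dct and Tyrp1, with log2 differences of 3.75, 4.45, 3.74 and 2.81 and 17.4% of genes called higher and 19.8% lower. Mlana and Tyrp1 had 0 UMIs in mature dendritic cells of both day 9 libraries, so their differences rest on day 12. At day 9 (knockout, wild type) Pmel had 3 and 1 UMIs there and Dct 1 and 1. Without the knockout library of day 12 Pmel and Dct alone were called, and Tyrp1 was lost in 3 of the 4 fits that left out 1 library. Tyr had 0 UMIs in mature dendritic cells of every library. Between phagocytes and mature dendritic cells edgeR called none of the 5 genes in either fit, at an unadjusted p below 0.05 none, and DESeq2 none. The Dct difference was -0.33 ± 0.52 on the log2 scale (edgeR adjusted p = 0.61; 30.3% of genes called higher in phagocytes and 26.9% lower), in a contrast added after the values were seen. The ratio of the summed levels, phagocytes over mature dendritic cells, was 1.00 (0.380 to 3.74), 1.23 (0.289 to 11), 0.828 (0.593 to 1.18) and 1.13 (0.637 to 2.22).

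Conventional dendritic cells had lower levels. Together cDC1 and cDC2 summed to 1.12 and 1.80 CPM at day 9 (knockout, wild type) and 6.09 and 3.90 at day 12. Phagocytes exceeded them by 5.45 (1.82 to 26.8), 3.71 (1.2 to 15.3), 3.78 (2.24 to 6.87) and 4.19 times (2.56 to 7.30). Dct was higher in phagocytes than in conventional dendritic cells by 1.75 ± 0.45 on the log2 scale (edgeR adjusted p = 0.00356; 23% of genes called higher), and the unfiltered fit called 4 of 5 genes (14.7% of genes), with Pmel at 1.71, Mlana at 2.88 and Tyrp1 at 2.54. Without the wild-type library of day 12 that number was 1. Dct was also higher in mature than in conventional dendritic cells, by 2.08 ± 0.61 (edgeR adjusted p = 0.00768; 23.9% of genes called higher), a contrast added after the values were seen.

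Against lymphocytes, cDC2s passed the test for Dct narrowly, with 1.96 ± 0.81 (edgeR adjusted p = 0.0494; 25.8% of genes called higher), and not with median-of-ratios size factors (edgeR adjusted p = 0.0506), without cells of over 10 pigment UMIs (0.0542) or with a stricter gate (0.0843). Without the filter Dct was the only one called (edgeR adjusted p = 0.0294; 15.4% of genes called higher). In cDC1s Dct differed from lymphocytes by 1.43 ± 0.86 (edgeR adjusted p = 0.184), with none of the 5 genes called, and 24.2% of all genes were called higher. Without the knockout library of day 9 Dct was called in cDC1s as well. Plasmacytoid dendritic cells had 2 and 1 pigment UMIs at day 9 and 0 in 18 and 26 cells at day 12, too few for the fit.

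The level in phagocytes was higher at day 12 than at day 9 in both genotypes, by 3.75 times in the knockout (2.96 to 4.78) and 2.44 times in the wild type (1.48 to 4.34). The makeup of the phagocytes differed between days as well. Classical monocytes, low in pigment RNA, were 50.3% of phagocytes at day 9 and 36.8% at day 12 in the knockout, and 51.2% and 30.4% in the wild type. Within classical monocytes the ratio of day 12 to day 9 was 2.55 in the knockout (1.38 to 4.69) and 0.664 in the wild type (0.240 to 2.11), where 1 cell gave 3 of the 6 UMIs of day 9. Within Spp1 Trem2 macrophages of the knockout it was 4.54 (2.89 to 7.28), and within Arg1 macrophages of the knockout 1.04 (0.572 to 1.89), a value that rests on 1 cell of day 9 with 19 UMIs. Within Cxcl9 Cxcl10 macrophages it was 26.2 in the knockout (7.66 to 139), from 3 UMIs at day 9, and 2.00 in the wild type (0.588 to 10.5). Within Gbp2b macrophages of the wild type it was 1.94 (0.716 to 7.38). The part of subset makeup in the day difference was not tested. Dct passed the test and was higher at day 12 by 2.52 ± 0.32 on the log2 scale (edgeR adjusted p = 0.00627; 2.39% of 10802 genes called higher and 3.16% lower), in a contrast added after the values were seen and with 1 residual degree of freedom. Pmel (1.44 ± 0.43, adjusted p = 0.0985), Mlana (1.74 ± 0.49, 0.0844) and Tyrp1 (0.55 ± 0.46, 0.534) did not pass, though without the filter edgeR called Pmel and Mlana too (adjusted p = 0.025 and 0.00925; 4.83% of genes called higher). In lymphocytes the ratio of day 12 to day 9 was 0.714 (0.164 to 2.48) in the knockout and 0.752 (0.0762 to 3.95) in the wild type. The difference of the day effect between phagocytes and lymphocytes was 3.43 ± 1.26 for Dct and did not pass (edgeR adjusted p = 0.148, unadjusted p = 0.00633; 1.11% of genes called higher).

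Between genotypes none of the 4 genes tested in phagocytes was called by edgeR, none had an unadjusted p below 0.05, and DESeq2 called none. The knockout over wild type ratio of the summed level was 0.916 (0.539 to 1.66) at day 9 and 1.41 (1.16 to 1.70) at day 12. The day 12 interval excludes 1 for counting error alone, but it takes UMIs as independent and each side is 1 library. Dct had the largest fitted difference, 0.57 ± 0.30 (edgeR adjusted p = 0.611), followed by Tyrp1 at 0.29 ± 0.46, Mlana at 0.27 ± 0.47 and Pmel at 0.05 ± 0.42. Of all 10802 genes tested, 0.426% were called higher and 0.389% lower in the knockout. In lymphocytes the summed level was higher in the knockout at day 9 by 3.78 times (1.30 to 11.7) and at day 12 by 3.59 times (0.515 to 39.7), from 10 against 7 and 4 against 2 UMIs. No gene of the 5 passed the filter there, where 0.01% of 10002 genes were called higher and 0.01% lower, and none was called without it. The genotype effect on Dct differed between phagocytes and lymphocytes by -3.05 ± 1.34 (edgeR adjusted p = 0.348, unadjusted p = 0.0227; 1.09% of genes called lower).

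Within phagocytes the pigment level differed between marker-gated subsets. Classical monocytes, the Ly6c2+ Ccr2+ cells that enter tissue from blood, had 3.15 and 5.09 CPM at day 9 (knockout, wild type) and 8.05 and 3.38 at day 12. All other phagocytes of the same libraries had 8.54, 8.24, 29.8 and 21.3, so classical monocytes were lower in 4 of 4 libraries. In each subset comparison the other phagocytes include cells that scored for more than 1 subset or for none. Those that scored for more than 1 were 413 and 44 cells at day 9 (knockout, wild type) and 236 and 516 at day 12. edgeR called 4 of the 4 genes tested lower in classical monocytes, Pmel by -1.33 ± 0.37 (adjusted p = 0.0301), Mlana by -2.11 ± 0.39 (0.0038), Dct by -2.03 ± 0.30 (0.000769) and Tyrp1 by -1.88 ± 0.44 (0.0138), while 8.39% of all genes were lower and 7.04% higher. Pmel was lost with DESeq2 (adjusted p = 0.193), and in edgeR with the stricter gate (0.0628) and without cells of over 10 pigment UMIs (0.0747). Without the knockout library of day 12, and likewise without the wild-type library of day 12, 2 genes were called.

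Macrophages gated on Spp1, Trem2, Gpnmb and Fabp5, a lipid-associated type of macrophage, had 64.8 CPM in the knockout at day 12 (49.5 to 83.2), the highest of the subsets there, and 42.3 in the wild type at day 12 (29.8 to 58.3). In the knockout at day 9 they had 14.3 (9.63 to 20.4), and the 5 such cells of the wild type at day 9 had 0. The other phagocytes of the 3 libraries had 5.02, 18.2 and 14.7 in the order knockout day 9, knockout day 12 and wild type day 12. edgeR over these 3 libraries called Mlana (2.33 ± 0.38, adjusted p = 0.00253) and Dct (1.51 ± 0.26, 0.00329) higher, where 6.48% of all genes were higher and 9.52% lower. Tyrp1 (1.47 ± 0.51, 0.0853) and Pmel (1.01 ± 0.43, 0.154) did not pass. Gpnmb is itself a melanocyte gene, and the same 2 genes were called when it was left out of the gate, an alternative added after the values were seen. These cells were deeper than phagocytes at large, with medians of 12463 to 15282 UMIs, and the levels here are in CPM.

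Arg1+ macrophages had 27.3 CPM in the knockout at day 9 (17.5 to 40.6), 28.3 in the knockout at day 12 (18.5 to 41.5) and 46.0 in the wild type at day 12 (30.1 to 67.4), and the wild type at day 9 held 1 such cell. In the knockout at day 9 a single cell gave 19 of the 24 UMIs, and without it the level was 5.72 CPM (1.86 to 13.4), against 5.01 in the other phagocytes of that library. Dct was higher there than in other phagocytes by 1.77 ± 0.43 (edgeR adjusted p = 0.0154; 4.71% of genes called higher and 4.13% lower). The call was lost with a stricter gate (1.28, adjusted p = 0.183) and without cells of over 10 pigment UMIs (1.28, adjusted p = 0.127), a setting that leaves out that cell. Without the wild-type library of day 12 it was lost as well (1.22, adjusted p = 0.31). Cxcl9 Cxcl10 macrophages had 1.99, 14.5, 52.1 and 29.0 CPM and Gbp2b macrophages, in the wild type, 8.49 at day 9 and 16.5 at day 12. Mrc1 macrophages had 24.4 in the knockout and 9.29 in the wild type at day 12. None of the 5 genes was called in these 3 subsets by edgeR, of which 3 could be tested in Cxcl9 Cxcl10, 1 in Gbp2b and 4 in Mrc1 macrophages. The share of all genes called was 5.22% higher and 3.24% lower in Cxcl9 Cxcl10 macrophages, 0.713% and 0.935% in Gbp2b macrophages, and 12.1% and 13.1% in Mrc1 macrophages.

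**Figure D4:**
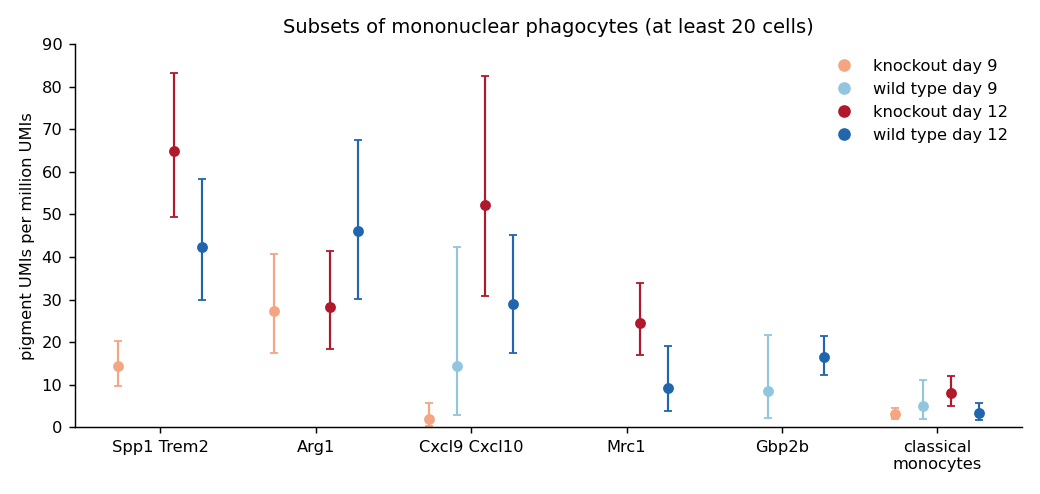
Summed UMIs of the 5 pigment genes per 1000000 UMIs (vertical) in subsets of mononuclear phagocytes with at least 20 cells in a library, with 1 point per library and bars for the exact 95% Poisson interval. Spp1 Trem2 macrophages of day 12 lie at 42.3 and 64.8, and classical monocytes of all libraries at 8.05 or below.

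Of the pigment UMIs, phagocytes held a smaller share of Dct and a larger share of Mlana than the melanoma-like barcodes, while the shares of Pmel and Tyr lay on both sides. In the 5 melanoma-like barcodes with pigment UMIs, Dct made up 66.4% of pigment UMIs (95% Clopper-Pearson interval 65% to 67.8%), Pmel 15.5%, Tyrp1 12.2%, Mlana 4.59% and Tyr 1.32%, and the Dct share of single barcodes ran from 47.5% to 79.8%. In phagocytes Dct made up 30.6% in the knockout at day 9 (22.1% to 40.2%), 31.2% in the wild type at day 9 (11% to 58.7%), 52.9% in the knockout at day 12 (45.9% to 59.8%) and 45.3% in the wild type at day 12 (39.0% to 51.8%). Mlana made up 15.7%, 25.0%, 18.1% and 17.1%, each above the highest share of a single melanoma-like barcode, 7.11%. Tyrp1 made up 27.8%, 31.2%, 12.9% and 12.2%, Pmel 25.0%, 12.5%, 15.2% and 23.7%, and Tyr 0.926%, 0%, 0.952% and 1.63%. Mature dendritic cells of the knockout at day 12 had 45.2% Dct (29.8% to 61.3%) and 28.6% Mlana (15.7% to 44.6%). The comparison rests on 5 barcodes of 1 library, and 3′ UMI counts are not divided by gene length.

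**Figure D5:**
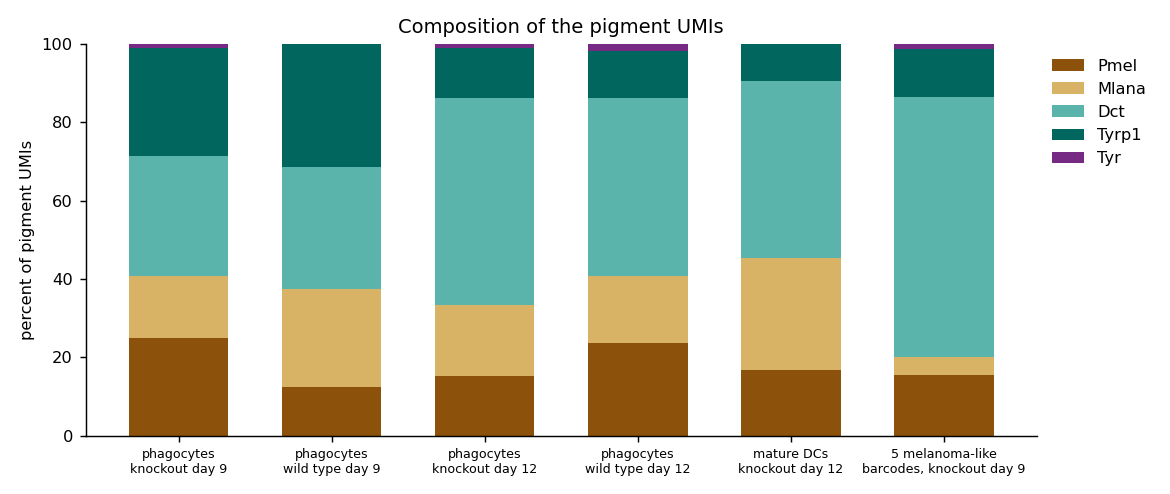
Percent of the pigment UMIs (vertical) that each of the 5 genes made up in the phagocytes of each library, in mature DCs of the knockout at day 12 and in the 5 melanoma-like barcodes of the knockout at day 9. Dct holds 66.4% in the melanoma-like barcodes, and 30.6% to 52.9% in phagocytes.

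Set against the 15741 pigment CPM of those 5 barcodes, the phagocyte level was 0.0389% in the knockout at day 9, 0.0425% in the wild type at day 9, 0.146% in the knockout at day 12 and 0.104% in the wild type at day 12. By gene the phagocyte levels at day 12 (knockout, wild type) were 0.116% and 0.0708% of the melanoma-like level for Dct, 0.144% and 0.159% for Pmel, 0.154% and 0.104% for Tyrp1 and 0.575% and 0.388% for Mlana. Other melanocyte genes were read the same way, 7 genes with at least 30 UMIs in the melanoma-like barcodes and at most 2 in all lymphocytes, a rule set after their values were seen. Of these, Sox10, Slc45a2 and S100b are markers of the melanoma gate, so the gate set their melanoma-like level in part. The 5 pigment genes are not, so the percentages of those markers are not on the same footing. Ptgds, the most abundant of them, had 1.86 and 1.13 CPM in phagocytes at day 12, or 0.150% and 0.0916% of its melanoma-like level of 1238. Slc45a2, a melanosomal transporter gene, stood at 0.0399% and 0.0851% (2 and 7 UMIs), and Pax3 at 0.279% and 0.0340% (5 and 1 UMIs). S100b stood at 0.450% and 0.214% (9 and 7 UMIs). Sox10 stood at 0.0984% and 0.120% (1 and 2 UMIs) and Tspan10 at 0.0579% and 0.106% (1 and 3 UMIs). Rab38, which acts in melanosome transport, stood higher, at 0.847% and 0.567% (31 and 34 UMIs). It reached 10.7 CPM in mature dendritic cells of the knockout at day 9, from 7 UMIs.

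Of a list of 30 other melanocyte and melanoma genes, 9 could be tested between phagocytes and lymphocytes, and edgeR called 7 higher and 2 lower in phagocytes, where 33.2% of all 9844 genes were called higher and 33.1% lower (median log2 difference 2.19, against -0.02 over all genes). The largest were Ednrb (5.44 ± 0.43, adjusted p = 9.94e-10) and Mitf (4.45 ± 0.29, 7.05e-11), followed by Gpnmb and Rab32 at 3.77 each, Syngr1 at 2.19, Ap1s2 at 1.72 and S100a1 at 1.28. Kit (-4.51) and Rab27a (-1.61) were lower. Ednrb had 0 UMIs in the melanoma-like barcodes against 58.7 CPM in phagocytes of the knockout at day 12, and Rab32 had 7.41 in the melanoma-like barcodes against 54.6 to 78.0 in phagocytes. Mitf, a marker of the melanoma gate, had 393 CPM in the melanoma-like barcodes against 7.94 to 20.7 in phagocytes. The rest of the list, Sox10, Pax3 and Slc45a2 among them, was too low to test.

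Genes of engulfment and of the lysosome were read as lists, since both processes handle ingested cells. Between phagocytes and lymphocytes edgeR called 24 of 31 engulfment genes higher and 3 lower, and 22 of 24 lysosomal genes higher and 1 lower, beside 33.2% and 33.1% of all genes, but several members (C1qa, C1qb, C1qc, Fcgr1, Cd68) were used in the gate. C1qa was at 7.33 ± 0.37 and Mertk, a receptor for dying cells, at 7.28 ± 0.47. Itgb3 (-4.54) and Mfge8 (-1.38) were lower. In mature dendritic cells 8 of 31 engulfment genes were higher and 5 lower than in lymphocytes, near or below the 28.5% and 30.5% of all genes, with Mertk at 1.97 ± 1.40 (adjusted p = 0.284) and Cd36 at 0.90 ± 1.01 (0.457) not passing, and 14 of 24 lysosomal genes were higher and 6 lower, led by Cd63 at 8.31 ± 0.49. From day 9 to day 12, 7 of 31 engulfment genes were higher in phagocytes and 1 lower, led by Gas6 (4.24 ± 0.22, edgeR adjusted p = 0.000148), a bridging ligand to dying cells, and Mrc1 (2.18 ± 0.25, 0.00397), and 3 of 25 lysosomal genes were higher, beside 2.39% of all genes higher and 3.16% lower. Between knockout and wild-type phagocytes Gas6 (1.73 ± 0.20, edgeR adjusted p = 0.0143), Trem2 (1.12 ± 0.19, 0.0474), Ctsl (1.22 ± 0.17, 0.0244) and Cd63 (1.84 ± 0.31, 0.0485) were higher in the knockout and Fcgr4 (-1.10 ± 0.16, 0.0333) lower, which is 2 of 31 engulfment and 2 of 25 lysosomal genes higher and 1 engulfment gene lower, beside 0.426% and 0.389% of all genes.

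Phagocytes with at least 1 pigment UMI were then compared with those that had 0, weighted to the same depth, in the 3 libraries with at least 20 such cells. A threshold of 3 UMIs was intended, but only the wild type at day 12 held 20 such cells. The numbers were 74 against 1678 cells in the knockout at day 9, 125 against 770 in the knockout at day 12 and 144 against 1582 in the wild type at day 12. Their median depths before weighting were 12711 against 8703, 12735 against 8706 and 9600 against 8244 UMIs. edgeR called 121 of 8246 genes higher (1.47%) and 94 lower (1.14%) in the cells with pigment UMIs.

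Of the lysosomal list, 11 of 25 genes were higher in phagocytes with pigment UMIs and none lower (median log2 difference 0.32, against 0 over all genes). They included Cd63 (1.10 ± 0.08, edgeR adjusted p = 0.000668), Ctsb (0.54 ± 0.05, 0.000867), Lgmn, the legumain protease (0.62 ± 0.06, 0.0013), Ctsd (0.56 ± 0.06, 0.00293), Atp6v0d2, a proton pump subunit (1.97 ± 0.27, 0.00526), and Acp5 (1.17 ± 0.20, 0.0155). Of the engulfment list 3 of 29 were higher, Trem2 (0.88 ± 0.08, 0.00108), Stab1 (1.11 ± 0.11, 0.00168) and C1qc (0.50 ± 0.07, 0.00547). Of the melanocyte list 2 of 9 were higher, Gpnmb (1.5 ± 0.17, 0.0031) and Syngr1 (1.26 ± 0.25, 0.0323). The Spp1 Trem2 subset, whose gate holds Trem2 and Gpnmb, made up 26 of the 74, 31 of the 125 and 20 of the 144 cells with pigment UMIs, and the part of subset makeup in these differences was not tested. The number of genes called was 46 without the wild-type library of day 12, 364 without the knockout library of day 12 and 941 without the weighting by depth, against 215.

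Over 27 sums of cell types and libraries with at least 20 cells, the genes whose log2 level followed the summed pigment level most closely, of 11791 ranked, were Stxbp6 (Pearson's r = 0.869), Ift172 (0.857), Sbf2 (0.844), Atrnl1 (0.817), Tnfrsf11a (0.813), Anxa4 (0.811), Ext1 (0.804), Dstn (0.804), Clta (0.802) and Dazap2 (0.798). The sums share libraries and depth, and the values are a description with no test. Stxbp6, Ift172 and Tnfrsf11a had 0 UMIs in the melanoma-like barcodes. Stxbp6 was at 23.4 to 40.4 CPM in phagocytes and 38.3 to 271 in mature dendritic cells, and at most 2.46 in lymphocytes. The 5 pigment genes themselves had r = 0.922 for Dct, 0.832 for Pmel, 0.733 for Tyrp1, 0.723 for Mlana and 0.513 for Tyr with the sum that contains them.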

How the data were processed

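The authors deposited raw UMI counts for every gene in each barcode, made with Cell Ranger 2.0.2 on mm10 per the submitters' processing notes; the annotation version, the cell calling and the use of strand are not given in the sources used here. The 5 genes, the marker lists and the comparisons were chosen with earlier results of these data known. Of 11270 barcodes, 10942 with at least 200 genes, at most 10% mitochondrial and 5% haemoglobin UMIs remained after doublet removal. Scrublet (scanpy 1.11.5) itself called 15 barcodes or fewer per library, so the highest scores were removed at 0.8% per 1000 barcodes, which are 112, 25, 34 and 109 barcodes (knockout and wild type at day 9, then at day 12). A cell was given a type when at least 3 of its markers were detected and its mean scaled marker level was 1.5 times that of the next type. Raw counts were summed per type and library and tested with edgeR 4.0.16, by its quasi-likelihood test after filterByExpr and TMM scaling. P-values were adjusted by Benjamini-Hochberg over all genes tested (threshold 0.05), with DESeq2 1.42.0 as an alternative. SE is the log2 difference divided by the square root of F. Fits with genotype, day or an interaction have 1 residual degree of freedom and lean on the spread shared between genes. In the interaction fits the test rested wholly on that shared spread. P-values of the other fits measure the spread between these libraries together with the spread shared between genes. Each library is 1 pool of mice, so no p-value measures the spread between mice. The fits were tested on simulated counts. Levels are UMIs per 1000000 UMIs of the cells summed, with exact Poisson, Clopper-Pearson or conditional intervals at 95%, and the limit of a 0 is 3 counts. Named genes are all 5 pigment genes, up to 8 called members of each list with the largest difference and up to 3 that did not pass, and the 10 genes most correlated with the summed level (log2 of the level plus 1, at least 50 UMIs). Other genes named were chosen after their values were seen.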

Additional observations from a re-analysis of the deposited data

Results flagged for a closer look

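Signals of pigment RNA also appeared in barcodes outside the compared cell types, above the upper limit of the lymphocytes of the same library. The 6 melanoma-like barcodes of the knockout at day 9 held 15544 pigment UMIs per 1000000 UMIs, against 2.07 in lymphocytes (upper limit 3.81). Cells that scored for more than 1 type held 19.8 UMIs per 1000000 UMIs in the knockout at day 9, of which 1 barcode gave 71 of 84 UMIs. They held 16.7 in the knockout at day 12 (32 UMIs, 14 of them in 1 barcode), against 1.48 in lymphocytes (upper limit 3.79), and 11.2 in the wild type at day 12 (29 UMIs), against 0.412 in lymphocytes (upper limit 1.49).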

How the results depend on the processing

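Counts here are of the 5 genes called. Without the filter on low counts 4 were called for phagocytes against lymphocytes, for mature dendritic cells against lymphocytes and for phagocytes against conventional dendritic cells, 3 for mature against conventional dendritic cells and 3 for day 12 against day 9, in each case against 1 with it. In the same order, 21.2%, 17.4%, 14.7%, 14.8% and 4.83% of all genes were called higher without the filter. With the filter 1 of the 5 was tested in the contrasts of cell types and 4 between days. Phagocyte and lymphocyte sums fitted alone gave 4 of 4, and the share of all genes called in that fit is not given here. For cDC2s the count of 1 became 0 with median-of-ratios size factors, the stricter gate and without cells over 10 pigment UMIs, and for Arg1 macrophages it became 0 with the last 2 settings. Leaving out 1 library gave 0 to 1 for each cell type against lymphocytes and for each contrast with conventional dendritic cells, and without a day 12 library none of the 5 passed the filter. Unfiltered, the range was 4 for phagocytes, 2 to 4 for mature dendritic cells and 0 to 1 for cDC1s and cDC2s against lymphocytes, 1 to 4 for phagocytes and 1 to 3 for mature dendritic cells against conventional ones. It was 2 to 4 for classical monocytes, 0 to 2 for Arg1 macrophages and 46 to 364 for genes that differ with pigment UMIs, a count that was 941 without depth weighting and 537 without the filter. With no replicate block, here the library, Dct was at 4.01 (edgeR adjusted p = 0.000349) and 1 gene was called. Thinning to 1000 and 4000 UMIs in place of 2000 gave phagocyte shares of 0.506% and 1.68% (knockout day 9), 1.82% and 6.99% (knockout day 12) and 1.42% and 4.60% (wild type day 12), and 1.19% for lymphocytes of the knockout at day 9 at 4000. No called fold change reversed its sign: under the alternatives 248 values of single genes kept their side of the threshold and 24 did not pass. Alternatives in which a gene could not be tested, such as Dct in filtered fits without a day 12 library, are in neither number. For the contrasts of cell types both numbers hold filtered and unfiltered fits, so the values are not independent. The cause of other changes was not tested. The genotype was compared within day, with day as a term of the fit, and leaving out a library there leaves no residual degree of freedom. Statuses of at least 3 and at least 10 pigment UMIs could not be fitted. Depth limits Tyr, the lymphocyte level and every day 9 value of the wild type.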
